A study of Capra hircus with 8 samples.

Results

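Collagen genes were taken as every gene of the authors' first count table whose symbol reads COL, a number, A and a number, and nothing after it. This rule found 44 of 18815 genes, and 34 of them passed the filter on low counts, beside 14085 of all genes. By class, 10 of 11 fibrillar genes, 4 of 6 basement membrane network genes, 5 of 5 beaded filament genes, 5 of 10 fibril-associated (FACIT) genes, 3 of 4 transmembrane genes and 7 of 8 other collagen genes were tested. Collagens are proteins of alpha chains wound into a rope-like helix, and each gene encodes a chain. In skin, dermal fibroblasts secrete the fibrillar types I, III and V that give the dermis its strength, and type VI forms beaded filaments around cells. The sheet under the epidermis and around hair follicles holds the type IV network, to which basal keratinocytes are fastened by the transmembrane type XVII and by anchoring fibrils of type VII.

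The study compared skin of cashmere goats, which are bred for their fine undercoat, with skin of milk goats in months 3, 6, 9 and 12. There was 1 library for each breed and month, 8 in all, made from polyadenylated RNA without any treatment named in the labels. Whether month means the age of the goats, as the sample labels have it, or the time of sampling, as the design text has it, is unresolved. How many animals stand behind a library is not stated either, so p-values measure only the spread between these libraries. Library totals were 7480053 to 8718429 reads in cashmere goats and 11333734 to 13899750 reads in milk goats, and 3 reads stood for 0.231 to 0.395 CPM (counts per 1000000 reads). CPM levels were scaled by TMM factors, which lay between 0.783 in milk goats at month 9 and 1.13 in cashmere goats at month 3. The month 12 library of milk goats stood apart in its markers. The summed level of 3 skeletal muscle genes was 50.7 CPM there and at most 3.22 CPM in the other libraries. In the same library 4 suprabasal keratinocyte genes summed to 38382 CPM, against 11292 to 18635 CPM in the others. Of these 4, KRT1, KRT10 and LOR were highest in it, at 21113, 15445 and 1728 CPM, while IVL was lowest in it, at 96.4 CPM. The 4 genes of the hair matrix and inner root sheath summed to 2915 CPM in it, against 9902 to 173425 CPM. Counts of called genes, the class medians that month 12 moved and the breed differences of COL17A1, COL7A1 and COL28A1 are therefore also given without both of its libraries. Of the cartilage and bone markers, the matrix genes were low, with at most 2.06 CPM for ACAN, 0.154 for MATN1, 0.570 for MATN3, 3.17 for COMP, 2.29 for BGLAP and 0.115 CPM for IBSP. Others in these lists were not: SPP1 lay between 55.0 and 754 CPM, SOX9 between 161 and 321, CHAD between 2.37 and 17.0 and RUNX2 between 9.07 and 16.9 CPM, so that the cartilage list summed to 178 to 332 CPM and the bone list to 66.4 to 765 CPM.

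Collagen transcripts made up 3.77% of all reads in cashmere goats at month 6 (95% exact binomial interval 3.75 to 3.78, which here and below covers counting error only) and 0.520% at month 12 (0.515 to 0.526). At months 3 and 9 the share in cashmere goats was 1.29% and 0.764%. In milk goats the share was 2.55%, 1.63%, 1.05% and 0.654% at months 3, 6, 9 and 12. Month 12 thus held the lowest collagen share in each breed, while the highest share stood at month 6 in cashmere goats and at month 3 in milk goats. The fibrillar genes carried most of this spread, with 0.817%, 3.30%, 0.436% and 0.176% of reads in cashmere goats and 1.95%, 1.12%, 0.696% and 0.120% in milk goats, in the order of the months. The transmembrane genes, nearly all of them COL17A1 reads, lay between 0.111% and 0.173% in cashmere goats and between 0.169% and 0.331% in milk goats, with the milk goat maximum at month 12. The basement membrane network genes took 0.0316% to 0.0471% of reads in cashmere goats and 0.0256% to 0.0367% in milk goats. At month 12 of milk goats the transmembrane share exceeded the fibrillar share, which was not the case in any other library.

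**Figure D1:**
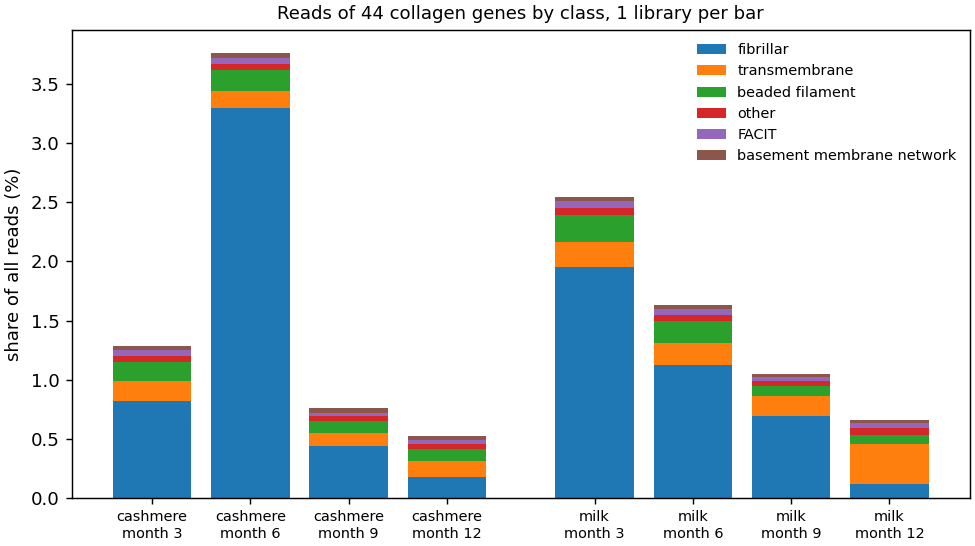
Share of all reads (%, y axis) taken by the 44 collagen genes in each of 8 libraries, with each bar split into 6 classes by colour and 1 library per bar. Bars run from 0.520% in cashmere goats at month 12 to 3.77% in cashmere goats at month 6, and the fibrillar part makes most of the difference.

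Compared per length, in the authors' FPKM averaged over the 8 libraries, COL1A1 stood highest at 568 FPKM, followed by COL1A2 at 263, COL3A1 at 234 and COL17A1 at 180 FPKM. COL6A1 followed at 81.7 FPKM, COL18A1 at 26.4, COL4A1 at 16.7 and COL16A1 at 13.6 FPKM, each the most abundant gene of its class. The markers COL1A1, COL1A2 and COL17A1 were thus among the 4 highest, so chains of the dermis and of the epidermis were both measured. In these bulk samples, fewer cells of a type and less RNA per cell cannot be told apart.

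COL1A1 (gene19399 in the table) encodes the more abundant chain of type I collagen, the main fibre of the dermis. Its level was 3687, 17749, 1994 and 735 CPM in cashmere goats at months 3, 6, 9 and 12, and 9930, 6076, 5147 and 539 CPM in milk goats. The cashmere goat library of month 6 was the highest of all, both month 12 libraries were the lowest, and the breeds overlapped. COL1A2 (gene4711), the partner chain of type I, had 1500, 7796, 1072 and 363 CPM in cashmere goats and 3764, 2535, 1991 and 263 CPM in milk goats. It ordered the 8 libraries exactly as COL1A1 did. COL3A1, the chain of type III collagen that is laid down with type I in young and healing skin, had 1763, 6425, 1025 and 408 CPM in cashmere goats and 3948, 2126, 1463 and 194 CPM in milk goats. Its order differed from that of COL1A1 only in the exchange of cashmere goats at month 3 and milk goats at month 9, which were next to each other.

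Between its highest and lowest library COL1A1 differed 32.9-fold, COL1A2 29.7-fold and COL3A1 33.0-fold, which placed them at ranks 131, 146 and 130 of 14085 genes by this range. In all, 6 of 34 collagen genes ranged over more than 10-fold, beside 2.70% of all genes, and the median range was 3.29-fold over the collagen genes and 2.05-fold over all genes. Within cashmere goats COL1A1 was 24.1-fold lower at month 12 than at month 6, and within milk goats it was 11.3-fold lower. From month 3 to month 6 the libraries of the breeds went opposite ways, 4.81-fold higher in cashmere goats and 1.63-fold lower in milk goats. Each of these ratios sets 1 library against another and carries no test.

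**Figure D2:**
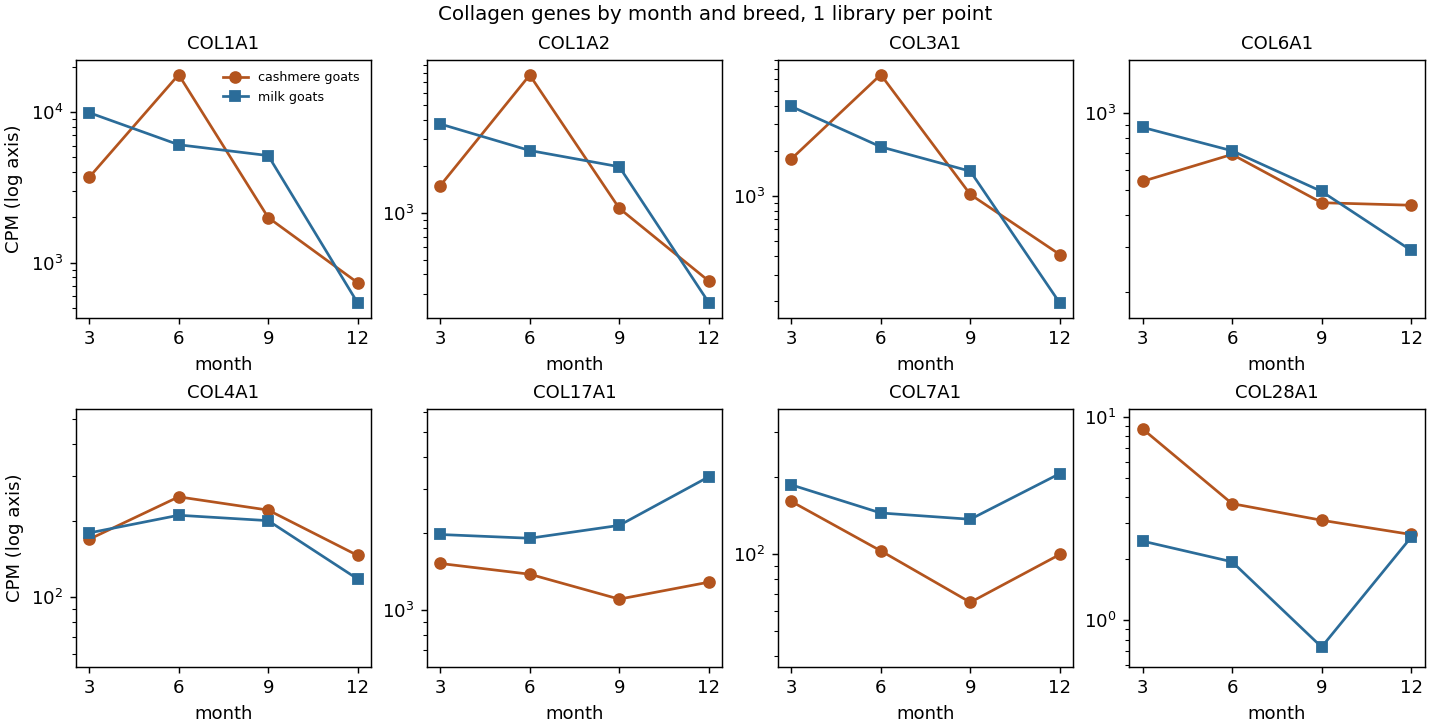
Level of 8 collagen genes (CPM, log axis) against month, with 1 library per point, circles for cashmere goats and squares for milk goats. COL1A1, COL1A2 and COL3A1 peak at month 6 in cashmere goats and are lowest at month 12 in both breeds, while COL17A1 and COL7A1 are higher in milk goats at each month and COL28A1 is higher in cashmere goats.

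The months were tested with edgeR's quasi-likelihood test in a model of month and breed, with Benjamini-Hochberg adjustment over all genes and a threshold of 0.05, each month being represented by its 2 libraries, 1 per breed. The 6 pairs of months share libraries and are not independent of each other. No collagen gene passed this threshold in any pair or in the test of all months together, nor did any other gene: 0 of 34 and 0% of 14085 genes. Before adjustment, at p under 0.05, month 12 against 6 gave 15 of 34 collagen genes (44.1%) beside 7.60% of all genes. Month 12 against 3 gave 11 (32.4%) beside 10.6%, and month 12 against 9 gave 9 (26.5%) beside 9.21%. Month 9 against 6 gave 9 (26.5%) beside 6.43%, month 9 against 3 gave 11 (32.4%) beside 23.6%, and month 6 against 3 gave 2 (5.88%) beside 7.18%. The test of all months together gave 12 (35.3%) beside 13.4%. Apart from month 6 against 3, each of these shares was above that of all genes, and month 9 against 3 was the nearest to it.

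In month 12 against 6 the log2 fold change of COL1A1 was -4.26 (SE 0.82), that of COL1A2 was -4.05 (SE 0.74) and that of COL3A1 was -3.81 (SE 0.71), with adjusted p-values of 0.405, 0.360 and 0.384 from edgeR's quasi-likelihood test. The unadjusted p of the test of all months was 0.00629 for COL1A1, 0.00472 for COL1A2 and 0.00447 for COL3A1. DESeq2 on the same counts called 7 of 34 collagen genes in month 12 against 6, beside 0.667% of all genes, all with lower values at month 12. They were COL1A1, COL1A2, COL3A1, COL4A1, COL12A1, COL6A2 and COL6A3. It called 4 in month 12 against 3 (0.660% of all genes), 4 in month 9 against 3 (7.86%) and 6 in the test of all months (3.81%). For COL1A1 in month 12 against 6, DESeq2 gave an adjusted p of 0.0252, 1 of 17 alternatives in which it passed, and the log2 fold change stayed between -5.10 and -2.74 over the 17. Without both libraries of month 12, edgeR's quasi-likelihood test called 8 collagen genes in month 9 against 3, beside 14.4% of all genes, and 2 in the test of the remaining months, beside 4.25%. The 8 were COL27A1, COL5A3, COL7A1, COL22A1, COL28A1 and COL6A3, lower at month 9, and COL4A5 and COL11A1, higher at month 9. Leaving out only 1 library of month 12 gave nearly the same fit of months 3 and 9, as the other then adds nothing to that comparison. The count was 8, beside 2027 of 14352 genes, without the cashmere goat library. It was 7, beside 1920 of 14075, without the milk goat library. Without the cashmere goat library, month 12 against 9 had 4 collagen calls beside 1460 of 14352 genes. The last of these shares was near the background of its fit. So were those of the 2 calls for the remaining months and of the 4 DESeq2 calls in month 9 against 3.

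Other fibrillar genes spread less and in other orders. COL5A2, a chain of the type V collagen that sets the width of type I fibrils, had 144, 280, 183 and 137 CPM in cashmere goats and 223, 180, 169 and 65.4 CPM in milk goats, a range of 4.28-fold. COL5A1, its partner chain, ranged 8.62-fold and had its highest value, 47.1 CPM, in milk goats at month 3. COL5A1 and COL5A2 shared the month 12 minimum in both breeds with the type I and III chains. COL5A3, COL27A1 and COL24A1 did not: COL5A3 and COL27A1 were highest in milk goats at month 12, with 36.5 and 97.4 CPM, and lowest in cashmere goats at month 9, with 14.7 and 26.8 CPM. In the second count table COL27A1 had 22.9 CPM in milk goats at month 12, below both libraries of month 3 (35.7 and 35.4 CPM), while COL5A3 was highest there too, at 78.5 CPM. COL11A1, a chain of type XI, was highest at month 9 in both breeds, with 27.6 CPM in cashmere goats and 35.7 CPM in milk goats, and its lowest library was milk goats at month 12 with 4.85 CPM. COL11A2 had at most 2.52 CPM. Over the 10 tested fibrillar genes the median log2 fold change was -0.85 in month 12 against 6 and -0.85 in month 9 against 3, where 9 of 10 were below 0, beside medians of 0.00 over all genes in both comparisons.

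The basement membrane network genes varied less between libraries. COL4A1, which with COL4A2 forms the common type IV network of skin and vessels, had 169, 248, 220 and 146 CPM in cashmere goats and 179, 210, 200 and 118 CPM in milk goats. Month 12 was its lowest month in both breeds, by 1.70-fold and 1.78-fold against month 6. COL4A2 had 124, 162, 147 and 99.8 CPM in cashmere goats and 114, 115, 113 and 96.9 CPM in milk goats, so that in milk goats months 3, 6 and 9 differed by no more than 2 CPM. COL4A5 and COL4A6 are chains of the network under the epidermis. They were highest in cashmere goats at month 12, with 49.5 and 15.7 CPM, where COL4A1 was low. COL4A5 was nearly as high in milk goats at month 9, at 49.2 CPM. In the second count table COL4A5 had 75.1 and 71.1 CPM in milk goats at months 9 and 12, above the 59.4 CPM in cashmere goats at month 12. The class median was -0.11 in month 12 against 6, with 2 of 4 genes below 0, and 0.22 in month 9 against 3, with 0 of 4 below 0. Of the classes, it was the only one with a positive median in month 9 against 3.

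The type VI chains lie between these. COL6A1 had 541, 690, 446 and 436 CPM in cashmere goats and 881, 713, 494 and 290 CPM in milk goats, a range of 3.04-fold with overlapping breeds. COL6A2 ranged 3.04-fold and COL6A3 2.41-fold, and the highest library of both was milk goats at month 3. COL6A3 had the smallest adjusted p of the collagen genes in month 9 against 3 apart from COL22A1, at 0.119 by edgeR's quasi-likelihood test, a value that COL5A3 shared. COL6A5, an alternative chain of type VI found in skin, went its own way: 16.6, 55.5, 35.6 and 99.9 CPM in cashmere goats and 36.5, 43.5, 6.53 and 9.34 CPM in milk goats. Cashmere goats had their highest value at month 12 and milk goats theirs at month 6. At month 12 the cashmere library exceeded the milk library by 3.42 on the log2 scale (interval 3.13 to 3.73) and at month 3 it was below it, at -1.14 (interval -1.42 to -0.86).

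Among the FACIT collagens, which sit on fibril surfaces, COL16A1 had 154, 113, 72.6 and 105 CPM in cashmere goats and 172, 132, 137 and 192 CPM in milk goats. It was lower in cashmere goats in each month, yet the groups overlapped. COL12A1 (265, 338, 209 and 179 CPM against 334, 314, 248 and 195 CPM) followed the fibrillar order more closely, with its lowest month at 12 in both breeds. COL22A1, placed at tissue junctions, was sparse. It had 5.15, 1.44, 0.573 and 1.45 CPM in cashmere goats and 1.87, 0.847, 0.184 and 1.67 CPM in milk goats, with month 9 lowest in both, and its log2 fold change in month 9 against 3 was -3.15 (SE 0.62, adjusted p 0.108 by edgeR's quasi-likelihood test). The value in milk goats at month 9 lies under the level of 3 reads, so the size of this fold change depends on few reads.

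COL17A1 (gene24434), the transmembrane collagen of the hemidesmosomes of basal keratinocytes and of hair follicle stem cells, showed none of the fibrillar pattern. It had 1525, 1384, 1105 and 1288 CPM in cashmere goats and 1981, 1915, 2151 and 3337 CPM in milk goats. Every milk goat library was above every cashmere goat library, with a mean of 1325 ± 176 CPM (SD, n = 4 months) in cashmere goats and 2346 ± 668 CPM in milk goats. COL7A1, which builds the anchoring fibrils below the hemidesmosome, had 161, 103, 64.7 and 99.7 CPM in cashmere goats and 187, 145, 137 and 207 CPM in milk goats. It too was lower in cashmere goats in each of the 4 months, with overlapping groups, and both genes had their highest library in milk goats at month 12 and their lowest in cashmere goats at month 9. Beside these values, the suprabasal keratinocyte genes summed to 38382 CPM in milk goats at month 12, although IVL among them was lowest there, at 96.4 CPM. The 5 basal keratinocyte genes summed to 13274 to 16898 CPM in cashmere goats and 10332 to 17374 CPM in milk goats. The part of these cells in the COL17A1 difference was not tested. COL23A1 and COL13A1, the other tested transmembrane collagens, stayed at or below 8.10 CPM.

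The remaining collagens include the steadiest member. COL18A1, a basement membrane proteoglycan whose end fragment is endostatin, lay between 205 and 276 CPM in all 8 libraries. Its range of 1.35-fold was exceeded by 95.2% of the 14085 genes. COL15A1, its close relative around vessels, ranged 1.95-fold and was lowest at month 12 in both breeds, with 46.9 and 48.1 CPM. COL28A1, a minor collagen of peripheral nerve sheaths, had 8.70, 3.73, 3.09 and 2.63 CPM in cashmere goats and 2.44, 1.93, 0.735 and 2.55 CPM in milk goats. All cashmere goat libraries were above all milk goat libraries, as for 6.46% of all genes, though by little at month 12. In the second count table month 12 went the other way, with 8.48 CPM in cashmere goats and 9.89 CPM in milk goats, and the groups overlapped. The summed level of 4 Schwann cell markers was 89.3, 84.3, 44.9 and 49.0 CPM in cashmere goats and 146, 93.7, 57.2 and 140 CPM in milk goats. Like COL28A1, this sum was highest at month 3 in cashmere goats and lowest at month 9 in milk goats. The other extremes differed. In cashmere goats the sum was lowest at month 9 and COL28A1 at month 12. In milk goats the sum was highest at month 3 and COL28A1 at month 12. In month 9 against 3 the median log2 fold change of the 4 markers was -1.46, with S100B alone above 0 at 0.76. It was -1.54 for COL28A1, and the median of 5 endothelial markers was -1.32. Between breeds the median of the 4 Schwann cell markers was -0.53, against 1.20 for COL28A1, with S100B alone of the 4 above 0 at 0.62. The part of Schwann cells in the COL28A1 values was not tested. COL8A1 and COL8A2 are the short chain network collagens of vessel walls. COL8A1 was highest in cashmere goats at month 6, with 34.1 CPM, while COL8A2 had 13.2 CPM in cashmere goats at both month 6 and month 9.

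**Figure D3:**
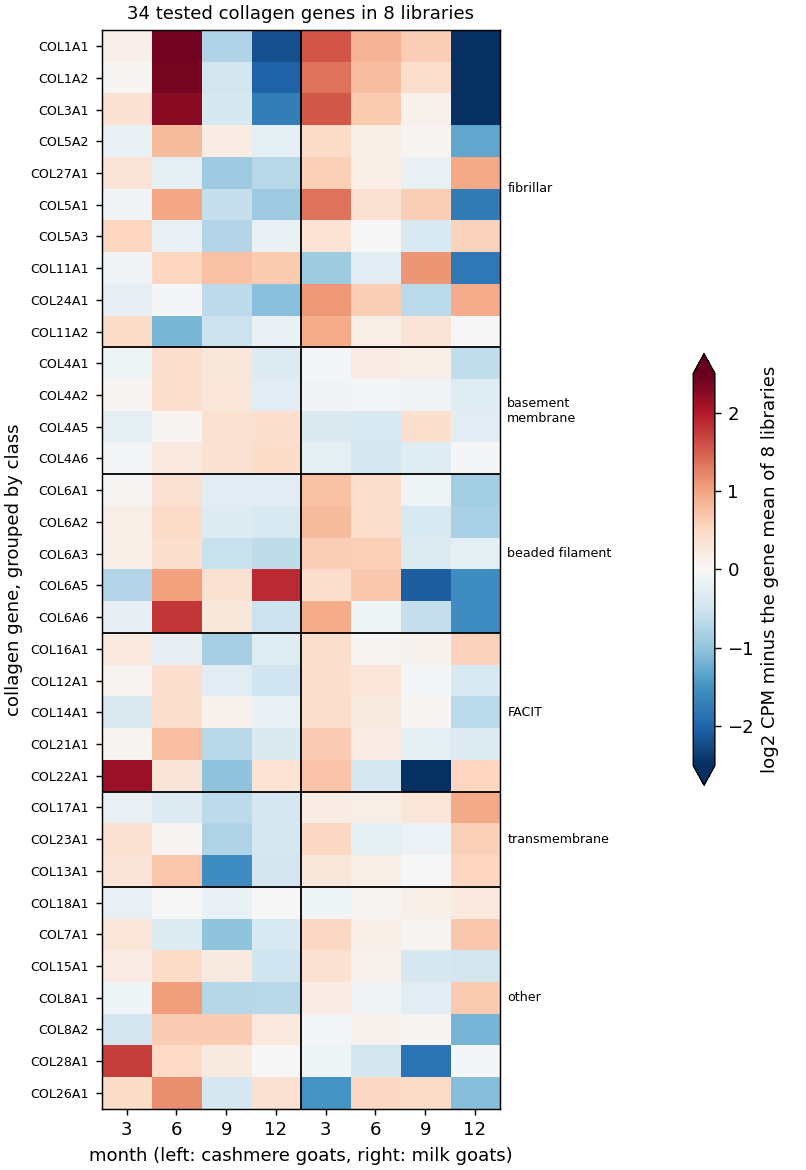
Level of the 34 tested collagen genes (rows, grouped by class) in 8 libraries (columns, month within breed), as log2 CPM minus the gene's mean, with red above and blue below it and the colour scale ending at 2.5 in each direction. The type I and III chains are deep red at month 6 of cashmere goats and deep blue at month 12 of both breeds, as COL22A1 is at month 9 of milk goats, while the basement membrane rows stay pale.

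Over the whole family, month 12 was the lowest month in both breeds for 12 of 34 tested collagen genes (35.3%), beside 5.12% of all genes. A peak at month 6 in cashmere goats together with a peak at month 3 in milk goats was seen for 14 of 34 (41.2%), beside 4.38% of all genes. Both patterns were picked after the values were seen and carry no test. Cashmere goats at month 6 were the highest library for 14 collagen genes, and milk goats at month 12 were the lowest for 13. The same milk goat library was also the highest for 7 genes, among them COL17A1, COL7A1, COL16A1, COL18A1 and COL27A1.

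Between the breeds, edgeR's quasi-likelihood test with month in the model called 0 of 34 collagen genes, beside 675 of 14085 genes (4.79%), of which 207 were higher and 468 lower in cashmere goats. At an unadjusted p under 0.05 there were 7 collagen genes (20.6%) beside 26.9% of all genes, so the collagens did not exceed the background. Fold changes were below 0, that is lower in cashmere goats, for 20 collagen genes and above 0 for 14, with a median of -0.06 on the log2 scale beside 0.03 for all genes. By class the median was -0.24 for fibrillar, 0.28 for basement membrane network, -0.02 for beaded filament, -0.11 for FACIT, -0.38 for transmembrane and 0.19 for other collagens. All 4 basement membrane network genes were above 0, from 0.15 for COL4A1 to 0.51 for COL4A6, and all 3 transmembrane genes were below 0. COL4A5, at 0.29 here, stood at -0.20 in the authors' second count table. With each library left out in turn the medians ran from -0.57 to 0.15 for fibrillar, from 0.18 to 0.33 for basement membrane network, from -0.20 to 0.17 for beaded filament, from -0.27 to 0.04 for FACIT, from -0.78 to -0.15 for transmembrane and from 0.05 to 0.31 for other collagens. The fibrillar median was above 0 without either library of month 3 (0.13 and 0.15) or of month 9 (0.09 and 0.10), and the beaded filament and FACIT medians were above 0 without either library of month 3. Both fits for a month are nearly the same, since its remaining library adds nothing to the breed difference. In the second table the fibrillar median was 0.04 and the beaded filament median 0.43. Without both libraries of month 12 the transmembrane median was -0.15 and the fibrillar median -0.36.

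The type I and III chains had breed differences within their error: -0.22 (SE 0.56) for COL1A1, -0.05 (SE 0.50) for COL1A2 and 0.25 (SE 0.48) for COL3A1, with adjusted p-values of 0.831, 0.960 and 0.777 from edgeR's quasi-likelihood test. The sign of each of them turned in some alternatives, for COL3A1 only where libraries were left out. Within single months the differences were large and opposite. For COL1A1 the cashmere to milk log2 ratio was -1.43 at month 3, 1.55 at month 6, -1.37 at month 9 and 0.45 at month 12, and for COL3A1 it was -1.16, 1.60, -0.51 and 1.07. The counting intervals of these ratios exclude 0, but there is no replicate within a breed and month. The test of a breed difference that follows a 12-month cycle called 0 of 34 collagen genes and 0% of all genes. At an unadjusted p under 0.05 it gave 3 collagen genes (8.82%), COL8A1, COL6A5 and COL27A1, beside 6.42% of all genes, and the lowest adjusted p of a collagen gene was 0.519 by edgeR's quasi-likelihood test. Leaving out any cashmere goat library brought a call for COL6A5, leaving out milk goats at month 6 a call for COL11A1 and at month 9 a call for COL3A1, each in a fit with 1 residual degree of freedom. Over all genes these fits called 38 to 175 for the cashmere goat libraries, 501 for milk goats at month 6 and 151 at month 9.

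COL7A1 came nearest to a breed call, at a log2 fold change of -0.71 (SE 0.18) and an adjusted p of 0.0710 by edgeR's quasi-likelihood test. COL17A1 followed at -0.79 (SE 0.24) and COL27A1 at -0.75 (SE 0.23), both with an adjusted p of 0.0963 by the same test. COL28A1, on the other side, stood at 1.20 (SE 0.38) with an adjusted p of 0.106, and COL16A1 at -0.54 (SE 0.18) with 0.115. DESeq2 called COL17A1, COL7A1 and COL27A1, 3 of 34 beside 12.2% of all genes, with adjusted p-values of 0.00245, 0.00846 and 0.0264. Over all alternatives the adjusted p ranged from 0.00245 to 0.499 for COL17A1, from 0.00846 to 0.191 for COL7A1 and from 0.0264 to 0.290 for COL27A1. Without both libraries of month 12 the log2 fold change was -0.60 for COL17A1 and -0.59 for COL7A1. In that fit edgeR's quasi-likelihood test called 1 collagen gene, COL28A1 at 1.58, beside 5.97% of all genes. Leaving out either library of month 12 alone gave nearly the same fit (COL28A1 at 1.58 and 1.56) and is no further check. The library that remains adds nothing to the breed difference. Groups that do not overlap were found for COL17A1, lower in cashmere goats like 8.02% of all genes, and for COL28A1, higher like 6.46% of all genes. In the second count table the groups overlapped for both genes.

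The COL17A1 difference was smaller in the authors' second count table, which counts another gene set on the same libraries. There it had 1039, 918, 854 and 992 CPM in cashmere goats and 1076, 960, 1148 and 1219 CPM in milk goats, a log2 fold change of -0.21 with an adjusted p of 0.499 by edgeR's quasi-likelihood test. COL27A1 likewise stood at -0.26 there, while COL16A1 stood at -0.61 and COL28A1 at 0.83. COL7A1 was not analysed in that table. For month 12 against 6 the tables gave near-identical values for the type I and III chains: -4.28 for COL1A1, -3.93 for COL1A2 and -3.60 for COL3A1 in the second. Of 27 collagen genes tested in both, 24 had the same sign between breeds (not COL1A2, COL4A5 and COL5A1, the last at -0.34 in the first table and 0.35 in the second), 25 in month 12 against 6 and 26 in month 9 against 3, and the median absolute difference was 0.17, 0.14 and 0.10 on the log2 scale.

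**Figure D4:**
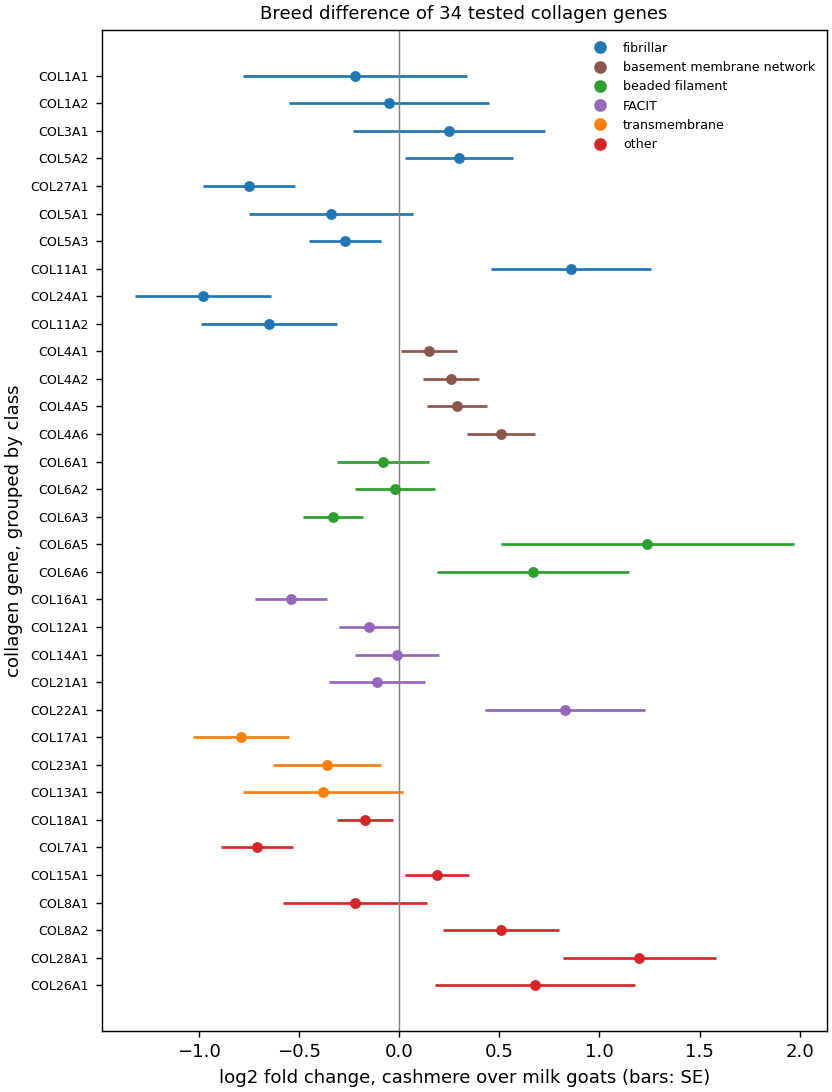
Breed difference (log2 fold change of cashmere over milk goats, x axis) of each of 34 tested collagen genes from the model with month, coloured by class, with bars of 1 SE. Type IV genes lie right of 0 and transmembrane genes left of it, and the bars of COL1A1, COL1A2 and COL3A1 span 0.

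Ratios between chains, computed on FPKM, showed how far the chains of a protein went together. COL1A1 over COL1A2 lay between 1.70 and 2.41 in the 8 libraries, although each chain varied about as much as the other. COL4A1 over COL4A2 lay between 1.17 and 1.76, and COL6A1 over COL6A2 varied 1.33-fold in all. COL5A1 over COL5A2 was looser, from 0.117 to 0.369. COL3A1 over COL1A1 was 0.516, 0.390, 0.554 and 0.599 in cashmere goats and 0.429, 0.377, 0.307 and 0.389 in milk goats. It was higher in cashmere goats in 4 of 4 months, by 0.45 ± 0.36 on the log2 scale (SD over 4 months, exact two-sided sign-flip permutation p = 0.125, the smallest that 4 months allow, adjusted p = 0.417 over 10 ratios). Two-sided sign-flip permutation gave the same exact p of 0.125 for COL1A1 over COL1A2 (-0.17 ± 0.21) and COL5A1 over COL5A2 (-0.60 ± 0.57), both lower in cashmere goats in 4 of 4 months. In the second count table COL5A1 over COL5A2 was instead higher in cashmere goats at months 6, 9 and 12. Between breeds COL5A1 stood at 0.35 and COL5A2 at 0.13 there. COL3A1 over COL1A1 was there slightly lower in cashmere goats at month 6 (8705 over 13315 CPM, beside 3010 over 4484 CPM in milk goats). Across classes the balance moved most: COL17A1 over COL1A1 ran from 0.0803 in cashmere goats at month 6 to 6.37 in milk goats at month 12. Some of these genes are neighbours in the RefSeq gene order of the goat assembly ARS1.2: COL3A1 with COL5A2, COL4A1 with COL4A2, COL6A1 with COL6A2 and COL6A5 with COL6A6.

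The machinery that makes collagen was followed through lists of genes. Of 22 tested folding and modifying enzymes, 0 passed the test between breeds, and in month 12 against 6 the median was -0.28 with 19 of 22 below 0. The list's summed level stayed between 1377 and 1868 CPM. Its most abundant genes were PPIB, a prolyl isomerase of the secretory pathway, at 189 to 315 CPM, and P4HB, a subunit of prolyl hydroxylase, at 295 to 409 CPM. Of 14 tested genes for propeptide processing and crosslinking, 0 passed between breeds, and the median in month 12 against 6 was -1.06 with 11 of 14 below 0. PCOLCE, which speeds the removal of the C-propeptide, had a log2 fold change of -1.12 in that comparison and LOX, the enzyme that starts the crosslinks, -1.52. ADAMTS2, which removes the N-propeptide of types I and III, had 39.7, 86.9, 29.0 and 12.9 CPM in cashmere goats and 82.9, 68.8, 45.9 and 18.1 CPM in milk goats, a log2 fold change of -2.39. Its order was close to that of COL1A1, with the peak at month 6 in cashmere goats and at month 3 in milk goats and the minimum at month 12 in both.

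Between breeds, the calls in the lists were few, beside the 4.79% called over all genes. Of 16 tested genes for collagen degradation, 1 passed: TIMP1, an inhibitor of matrix metalloproteinases, was lower in cashmere goats at -0.78 (SE 0.15, adjusted p 0.0373 by edgeR's quasi-likelihood test). It had 63.5, 88.7, 80.8 and 74.0 CPM in cashmere goats and 120, 139, 113 and 157 CPM in milk goats. The groups did not overlap, with cashmere goats lower like 8.02% of all genes. Of 14 tested other basement membrane proteins, 1 passed: PXDN, the peroxidase that crosslinks type IV collagen, was higher at 0.70 (SE 0.14, adjusted p 0.0432 by the same edgeR test). It had 50.6, 45.2, 39.4 and 32.3 CPM in cashmere goats and 31.0, 30.1, 18.9 and 23.7 CPM in milk goats. The TIMP1 call was lost with library totals and limma, and that of PXDN in the model without month and in the second table. TIMP1 was not analysed in the second table. Both calls were lost when any library of months 3, 6 or 9 was left out (adjusted p 0.108 to 0.154 by edgeR's quasi-likelihood test). Of 9 collagen receptors and 7 hemidesmosome genes, 0 passed. The receptor gene ITGB1 stood at 0.15 and DDR1 at -0.01 between breeds, and the hemidesmosome-linked keratins KRT5 and KRT14 at 0.17 and 0.18. Of the 7 hemidesmosome genes 4 were above 0 and 3 below. ITGA6 and CD151 stood at 0.07 and 0.06, and DST, PLEC and ITGB4 at -0.39, -0.36 and -0.09.

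From month 6 to month 12, fibroblast markers differed less than the type I and III chains. The 8 markers summed to 4062, 3588, 2791 and 2217 CPM in cashmere goats and 4865, 4827, 1945 and 3741 CPM in milk goats. Between these months the sum was 1.62-fold lower in cashmere goats and 1.29-fold lower in milk goats, where COL1A1 was 24.1-fold and 11.3-fold lower. DCN, a proteoglycan that binds type I fibrils, had 1096, 791, 583 and 466 CPM in cashmere goats and 830, 787, 471 and 1047 CPM in milk goats, so that in milk goats it was highest in the month in which COL1A1 was lowest. LUM and DPT went the other way and were lowest in milk goats at month 12, with 106 and 76.9 CPM. The rest of the markers lay between their milk goat extremes in that month. In month 12 against 6 the log2 fold change was -0.08 for DCN and -1.42 for LUM. All 8 markers were below 0 in month 12 against 6, with a median of -0.59, and 0 passed. In month 9 against 3 their median was -0.89, again with 8 of 8 below 0, close to the fibrillar median of -0.85. Between breeds 1 of 8 passed, beside 4.79% of all genes: THY1 was lower in cashmere goats, at -0.68 (SE 0.14, adjusted p 0.0450 by edgeR's quasi-likelihood test). In the second table it stood at 0.29 instead, and the call was also lost with library totals, with limma, in the model without month and when any library of months 3, 6 or 9 was left out.

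**Figure D5:**
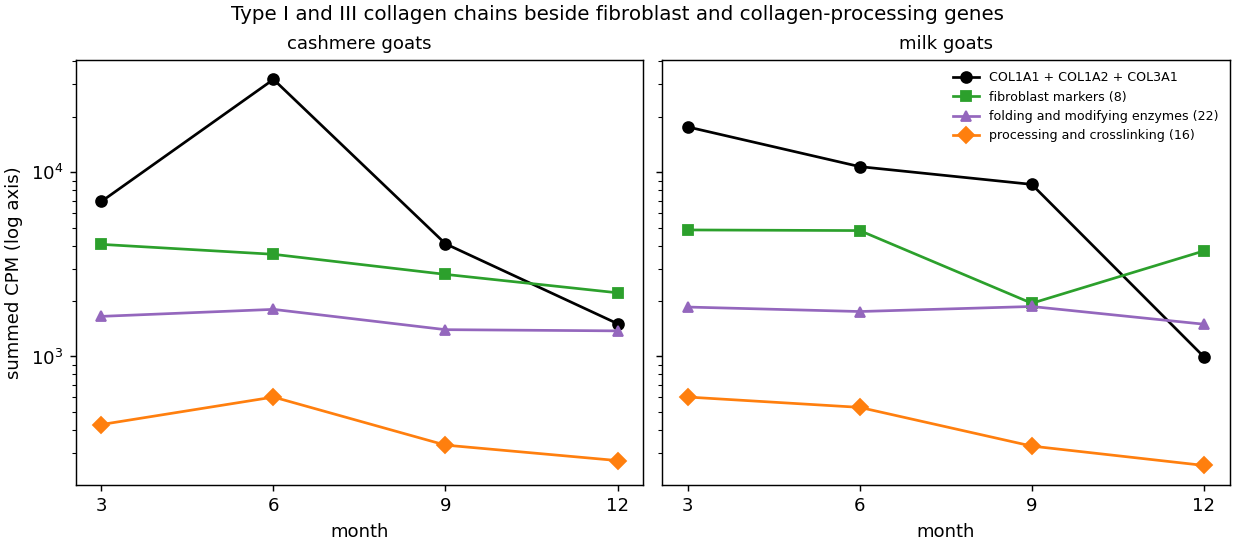
Summed level (CPM, log axis) of COL1A1, COL1A2 and COL3A1, of 8 fibroblast markers, of 22 folding and modifying enzymes and of 16 processing and crosslinking genes against month, with cashmere goats on the left, milk goats on the right and 1 library per point. The collagen line spans more than a decade in each breed, while the fibroblast sum stays between 1945 and 4865 CPM.

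The 10 collagen genes that were not tested had 4 to 68 reads in all 8 libraries together and at most 14 in any library. They were COL2A1, COL10A1, the type IV chains COL4A3 and COL4A4, the type IX chains COL9A1, COL9A2 and COL9A3, and COL19A1, COL20A1 and COL25A1. COL9A1 was the highest of them, with 6 to 11 reads in every library. At these depths no difference between breeds or months was detectable for them.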

How the data were processed

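RNA sequencing of goat skin was analysed in 8 libraries, 1 per breed (cashmere, milk) and month (3, 6, 9, 12). The authors deposited raw read counts per gene in 2 tables and, for the first, FPKM values (fragments per kilobase of gene and per 1000000 reads). Per the labels, RNA was polyadenylated and libraries were directional and paired-end. Bowtie2 is named in the submitters' processing notes, with its version and the genome build not given in the sources used here. Counts and FPKM kept a constant ratio within 0.0163% for the 368 genes whose FPKM was 50 or more throughout. One table names cashmere goats by a transliterated word. Correlated over 12931 shared symbols, 8 of 8 of its columns were nearest to their namesake in the second table. The count test was that of edgeR 4.0.16 (R 4.3.3): filterByExpr on breed, TMM, quasi-likelihood F tests in a model of month and breed (3 residual degrees of freedom), and Benjamini-Hochberg adjustment at 0.05. The season test crossed breed with a cosine and a sine wave over 12 months (2 residual degrees of freedom). Alternatives were DESeq2 1.42.0, limma 3.58.1 on log2(FPKM + 1) and log2(FPKM + 0.1), other scalings and filters, a model without month, the second table and left-out libraries, plus, chosen after seeing the data, leaving out both month 12 libraries. In the model of month and breed, a month left with 1 library adds nothing to the breed difference. Leaving out either library of a month is therefore nearly the same fit, not a separate check. The procedure was run on simulated counts with a common dispersion for all genes, which checks the code and does not measure the power or error rate in these libraries. The rule gave values in every library for COL1A1, COL1A2, COL17A1, each collagen gene past the threshold and the most abundant of each class, and of each list up to 4 genes past the threshold or else the 2 most abundant by FPKM. Further genes given by library, among them COL3A1, COL5A2, COL4A2, COL6A5, COL12A1, COL22A1, COL7A1, COL28A1, ADAMTS2 and DCN, were chosen after their values were seen. The collagen genes and the lists were chosen with earlier results of these data known. Collagen rows of the second table numbered 33 by symbol and 2 by product name. All 44 symbols matched the RefSeq table of ARS1.2, used only for gene order.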

Additional observations from a re-analysis of the deposited data

Results flagged for a closer look

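In 68 groups of 4 libraries (34 collagen genes in 2 breeds), 3 had a library far from the other 3 by Dixon's gap ratio on log2 CPM above its 95% critical value. Chance gives about 1 in 20 such groups. All 3 were in milk goats. COL4A2 was lowest at month 12, with a gap ratio of 0.925, because months 3, 6 and 9 lay within 113 to 115 CPM of each other and month 12 at 96.9 CPM. COL8A2 was lowest at month 12, with a ratio of 0.877 (3.79 CPM beside 8.22 to 9.17 CPM). COL4A5 was highest at month 9, with a ratio of 0.843 (49.2 CPM beside 28.7 to 31.2 CPM).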

How the results depend on the processing

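Several breed differences changed sign with the processing, and the cause was not tested. With library totals COL1A2 stood at 0.07 and COL6A1 at 0.04. With limma on log2(FPKM + 1) the values were 0.01 for COL1A1, 0.18 for COL1A2, 0.13 for COL6A1 and 0.04 for COL18A1, and with a pseudocount of 0.1 they were 0.01, 0.18, 0.14 and 0.04. With no replicate block (the model without month), COL1A1 stood at 0.16 and COL1A2 at 0.33, and 346 genes of all were called between breeds. In the second table COL1A2 stood at 0.18, COL5A1 at 0.35 and COL4A5 at -0.20, and without month 12 COL3A1 stood at -0.06. Leaving out each library in turn gave -0.84 to 0.23 for COL1A1, -0.63 to 0.40 for COL1A2, -0.25 to 0.73 for COL3A1 and -0.32 to 0.13 for COL6A1.

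Collagen genes called numbered 0 in each main test. DESeq2 called 3 between breeds, 4 in month 9 against 3, 1 in month 9 against 6, 4 in month 12 against 3, 7 in month 12 against 6 and 6 for month. Without both month 12 libraries the calls were 1 between breeds, 8 in month 9 against 3 and 2 for month. Leaving out single libraries gave 0 to 1 between breeds, 0 to 8 in month 9 against 3, 0 to 4 in month 12 against 9, 0 to 5 for month and 0 to 1 for the season test, where 1 residual degree of freedom remained. Over all genes the same fits called 0 to 2027, 0 to 1460, 0 to 1180 and 38 to 501 in the last 4 of these tests. Over all genes the breed count was 1712 with DESeq2, 1374 and 1161 with limma at pseudocounts of 1 and 0.1, 1117 in the second table and 0 to 869 with a library left out. The median of the other collagens was -0.19 under the stricter filter, which left 5 of 7 genes, and that of the basement membrane network was 0.48 with limma at 0.1. Calls in the degradation and fibroblast lists were 0 with library totals and with limma at 1.

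Depth limits the rare genes: the 10 untested collagen genes had at most 14 reads in a library, and 3 reads are the limit that a count of 0 allows.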
